A study of Mus musculus with 4 samples.

Results

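Irf4, Batf, Prdm1, Maf, Bach2, Bhlhe40, Rora, Id2, Id3 and Tbx21 are transcription factors or inhibitors of transcription factors that are known from effector T cells. These 10 genes, chosen by name, were followed through single-cell 3' RNA profiles of thymic regulatory T (Treg) cells, in a table of 27998 genes and 8273 cells. Treg cells are CD4 T cells that express Foxp3 and hold other immune cells in check. The levels were compared between the libraries of the table, between cells in which Il2ra was detected or not, and between cells that the authors placed in a normalized table of G1 cells and cells left out of it. Il2ra encodes the alpha chain of the IL-2 receptor, the surface protein CD25.

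The labels give 4 samples, 1 per genotype, all from mice aged 3 weeks on the B6 strain. They are an Il2 knockout (IL2 o/o), an Il15 knockout (IL15 o/o) and a wild type of each line (IL2 wt/wt and IL15 wt/wt). Every genotype carries Rag2-Gfp, which marks recently formed T cells, and Foxp3-Thy1a, which puts Thy1.1 on cells that express Foxp3, and the sort gate was CD4+CD8-Thy1.1+GFP+. The barcodes carry suffixes 1 to 4, taken here as 4 libraries, and no label ties a suffix to a genotype, so the genotypes were not compared. Genotype and other differences between libraries cannot be told apart here, and with 1 sample per genotype no p-value was computed. The number of animals behind each sample is unknown here.

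Signals through the antigen receptor induce IRF4 and BATF, which bind DNA together at composite sites and are needed for the effector form of Treg cells in peripheral tissues. Blimp-1, encoded by Prdm1, and c-Maf belong to that effector form, while BACH2 occupies AP-1 sites and holds T cells in a resting, naive-like state. ID2 and ID3 have no DNA-binding domain of their own and keep E proteins, basic helix-loop-helix activators, off the DNA.

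Several of these factors are linked through AP-1 elements, so the promoter of each member was taken from RefSeq (GRCm38.p6). It spans 250 bases before to 50 bases after a start given there, and was there for 8 of the 10 members. The windows of Prdm1 and Bach2 lie far inside the genes of the GRCm38 annotation. Prdm1 runs there from 44437177 to 44528501 on the minus strand. Bach2 runs from 32238804 to 32586108 on the plus strand, with its window at 32417185 to 32417484. The windows of Id2 (25096043 to 25096342) and Id3 (136143572 to 136143871) also lie wholly inside their annotated genes. On either strand, the AP-1 element TGANTCA was found in 1 of the 8 promoters, that of Prdm1, against 7.81% of 32851 promoters of the same length. A STAT element TTCNNNGAA was found in 1 (Bach2; 8.3% of all promoters) and a TATA box TATAAA in 1 (Irf4; 13.6% of all). The kappaB element and the E-box CACGTG were in 0 of the 8, against 1.63% and 7.15% of all promoters. A match is a description of letters, and its absence says only that these letters are not in this window. The promoters of Irf4, Batf and Prdm1 are shown because Irf4 and Batf were called higher with Il2ra, and Prdm1 holds the only AP-1 element. They lie at chr13:30748983-30749282 on the plus strand (Irf4), chr12:85686470-85686769 on the plus strand (Batf) and chr10:44458699-44458998 on the minus strand (Prdm1), and capitals mark matches.
Irf4: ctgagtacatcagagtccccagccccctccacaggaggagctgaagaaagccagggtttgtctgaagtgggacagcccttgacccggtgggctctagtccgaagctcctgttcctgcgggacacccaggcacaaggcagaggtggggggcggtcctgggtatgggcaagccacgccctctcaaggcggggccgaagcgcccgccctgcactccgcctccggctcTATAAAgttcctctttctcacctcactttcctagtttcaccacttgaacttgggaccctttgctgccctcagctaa
Batf: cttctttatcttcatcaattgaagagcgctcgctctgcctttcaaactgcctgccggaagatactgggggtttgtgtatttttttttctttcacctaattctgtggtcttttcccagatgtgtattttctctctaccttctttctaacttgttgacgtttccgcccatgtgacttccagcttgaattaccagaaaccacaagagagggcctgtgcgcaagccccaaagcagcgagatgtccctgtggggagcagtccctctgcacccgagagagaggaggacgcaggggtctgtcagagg
Prdm1: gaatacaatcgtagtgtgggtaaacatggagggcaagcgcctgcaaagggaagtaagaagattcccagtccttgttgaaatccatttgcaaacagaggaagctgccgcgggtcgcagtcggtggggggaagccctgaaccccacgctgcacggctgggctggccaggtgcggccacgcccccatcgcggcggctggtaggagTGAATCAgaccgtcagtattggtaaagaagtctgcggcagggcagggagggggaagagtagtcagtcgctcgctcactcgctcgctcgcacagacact

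Libraries 1 to 4 held 1609, 2452, 2037 and 2175 cells with 7890384, 11274713, 5717732 and 8349421 unique molecular identifiers (UMIs, the counted RNA molecules) and medians of 3857, 3640, 2501 and 3019 UMIs per cell. Library 3 stood apart. Il2ra was detected in 6.82% of its cells, against 39.2%, 39.4% and 32.2% in libraries 1, 2 and 4, and 13 of its cells were proliferating (3 or more UMIs of 17 G2 and M phase genes), against 149, 306 and 174. Its erythroid genes summed to 1879 UMIs per 1000000 UMIs (CPM), against 0, 6.21 and 1.32 CPM in libraries 1, 2 and 4. RNA of Foxp3, which defines Treg cells, had 14.3, 12.6, 13.8 and 12.8 CPM in libraries 1 to 4. It was counted in 6.46%, 5.55%, 3.73% and 4.74% of their cells, so it does not show cell by cell that the sort held. Among the markers of other cells, Pax5, Csf1r, Itgax, Siglech, Ncr1, Krt14 and Foxn1 were at 0 UMIs. Others of the same lists were counted, with Cst3 in 36.5%, Cd74 in 16.6%, Nkg7 in 14.2%, Ccl5 in 6.18%, Epcam in 5.1%, Cd79b in 4.69% and Ly6d in 2.51% of cells. There were 27 barcodes present in 2 libraries each.

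Detection was sparse and uneven among the members. Over all cells, Id3 was counted in 3597 cells (7742 UMIs), Bach2 in 1610 (1902 UMIs), Batf in 1311 (2020 UMIs), Rora in 984 (1422 UMIs), Bhlhe40 in 825 (1340 UMIs) and Id2 in 734 (996 UMIs). Irf4 was counted in 187 cells (233 UMIs) and Maf in 145 (159 UMIs). Prdm1 (26 UMIs in 26 cells) and Tbx21 (14 UMIs in 12 cells) fell below the minimum of 50 UMIs, so ratios were read for 8 members only. Counts from a 3' kit do not give levels per transcript length, so the members are not ranked against each other. A background reading was sought in 79 cells with at least 5 UMIs of double-positive thymocyte genes, which had a median of 2124 UMIs. Free RNA, own expression and doublets cannot be told apart in them. Their Il2ra was above that of the whole library in library 1 (280 against 181 CPM) and library 3 (73.7 against 31.1 CPM). It was below it in libraries 2 and 4. In these cells Irf4, Prdm1, Bach2, Bhlhe40, Rora and Tbx21 gave 0 UMIs, which allows up to 10.5 CPM and a share of cells with a UMI of up to 3.8%. Batf was seen in 6.33%, Id2 in 6.33%, Maf in 1.27% and Id3 in 30.4% of them, and, once thinned as below, Batf and Id2 in 3.85% and Id3 in 21.2%. Il2ra itself was counted in 13 of the 79 cells (16.5%, and 15.4% thinned), against 29.5% of all cells (18.4% thinned), and in library 3 in 4 of 24 such cells. An Il2ra UMI is therefore used as detection, and not as proof of a cell class.

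Cells with at least 1 Il2ra UMI numbered 2437 and had a median of 4411 UMIs, and the 5836 cells without one had a median of 2783. Irf4, Bhlhe40 and Batf were higher in the cells with Il2ra, and Id2 was lower. These 4 of 8 members were called, meaning a ratio of CPM of at least 1.5-fold after stratifying by library, with a 95% counting interval off 1 and the same direction in every library. Across all genes tested, 8.08% were called, 4.65% as higher and 3.43% as lower. The median log2 ratio was 0.23 over the 8 members and -0.03 over all genes. Depth differs between the groups, so the ratio was also stratified by quartile of total UMIs within a library. Irf4, Bhlhe40 and Batf were still called higher and Id2 was not called, while 3.3% of all genes were called, 2.09% as higher and 1.21% as lower. CPM printed below are sums over cells, and their quotient can differ from the stratified ratio.

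Irf4 (ENSMUSG00000021356, chromosome 13, 30749226 to 30766976, GRCm38), the interferon regulatory factor induced by antigen receptor signals, had 11.8, 12.3, 12.8 and 12.3 CPM in cells with Il2ra of libraries 1 to 4. In cells without Il2ra it had 2.75, 2.99, 4.64 and 3.29 CPM. The 4 values with Il2ra lay close together and above all 4 without, library 3 included. The stratified ratio was 3.90-fold (95% counting interval 2.86 to 5.32), and 3.39-fold with depth quartiles. Irf4 was counted in 5.58% of cells with Il2ra and 0.874% of cells without, and in 1.94% and 0.354% once cells were thinned to 1811 UMIs. Shallower cells dropped out of the thinned shares, 68 with Il2ra and 758 without. Its intervals in library 3 were wide, since that library held 7 Irf4 UMIs in 139 cells with Il2ra. In the double-positive gate cells Irf4 had 0 UMIs, with an exact Poisson interval up to 12.9 CPM. That interval holds the Irf4 levels with and without Il2ra, so neither group is told from the gate cells.

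Bhlhe40 (ENSMUSG00000030103, chromosome 6, 108660629 to 108666925), a basic helix-loop-helix repressor induced on T cell activation, had 56.7, 66.6, 123 and 54.0 CPM in cells with Il2ra of libraries 1 to 4. In cells without it had 27.3, 18.6, 33.5 and 21.4 CPM. Again no library of one group reached into the other. The ratio was 2.82-fold (2.50 to 3.19), and 2.31-fold with depth quartiles. It was counted in 18.9% of cells with Il2ra and 6.25% without (8.27% and 3.51% thinned).

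Batf (ENSMUSG00000034266, chromosome 12, 85686669 to 85709087), the AP-1 family partner of IRF4, had 88.3, 89.3, 58.5 and 81.8 CPM in cells with Il2ra of libraries 1 to 4, and 50.5, 49.6, 31.9 and 43.4 CPM in cells without. Library 3 was the lowest in both groups, and its cells with Il2ra still lay above every library without. The ratio was 1.81-fold (1.65 to 1.98), or 1.67-fold with depth quartiles. Batf was counted in 26.2% of cells with Il2ra and 11.5% without (11.3% and 6.5% thinned). The double-positive gate cells had a share of 6.33%, or 3.85% thinned (0.47 to 13.2), and 21.0 CPM (6 UMIs, 7.71 to 45.7). The thinned interval holds both thinned Batf shares, so by these neither group is told from the gate cells. Over all libraries, the CPM interval holds the 43.6 CPM without Il2ra and lies below the 85.8 CPM with it.

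Id2 (ENSMUSG00000020644, chromosome 12, 25093799 to 25097140), the E protein inhibitor of effector and innate lymphocytes, ran the other way. It had 18.2, 19.0, 34.7 and 22.4 CPM in cells with Il2ra of libraries 1 to 4, and 28.3, 30.8, 52.0 and 33.9 CPM in cells without. Within each library the cells with Il2ra were lower, although library 3 with Il2ra lay above all but 1 of the values without. The ratio was 0.64 (0.55 to 0.74), and 0.69 with depth quartiles, just short of 1.5-fold. It was counted in 8.7% of cells with Il2ra and 8.94% without. At equal depth the shares were 3.88% (3.14 to 4.74) with Il2ra and 5.99% (5.35 to 6.67) without. The double-positive gate cells had 28.0 CPM of Id2 (8 UMIs, 12.1 to 55.2) and a thinned share of 3.85% (0.47 to 13.2). Both intervals hold the Id2 values with and without Il2ra, so neither group is told from the gate cells. Up to 14 Id2 UMIs came from 1 cell.

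**Figure D1:**
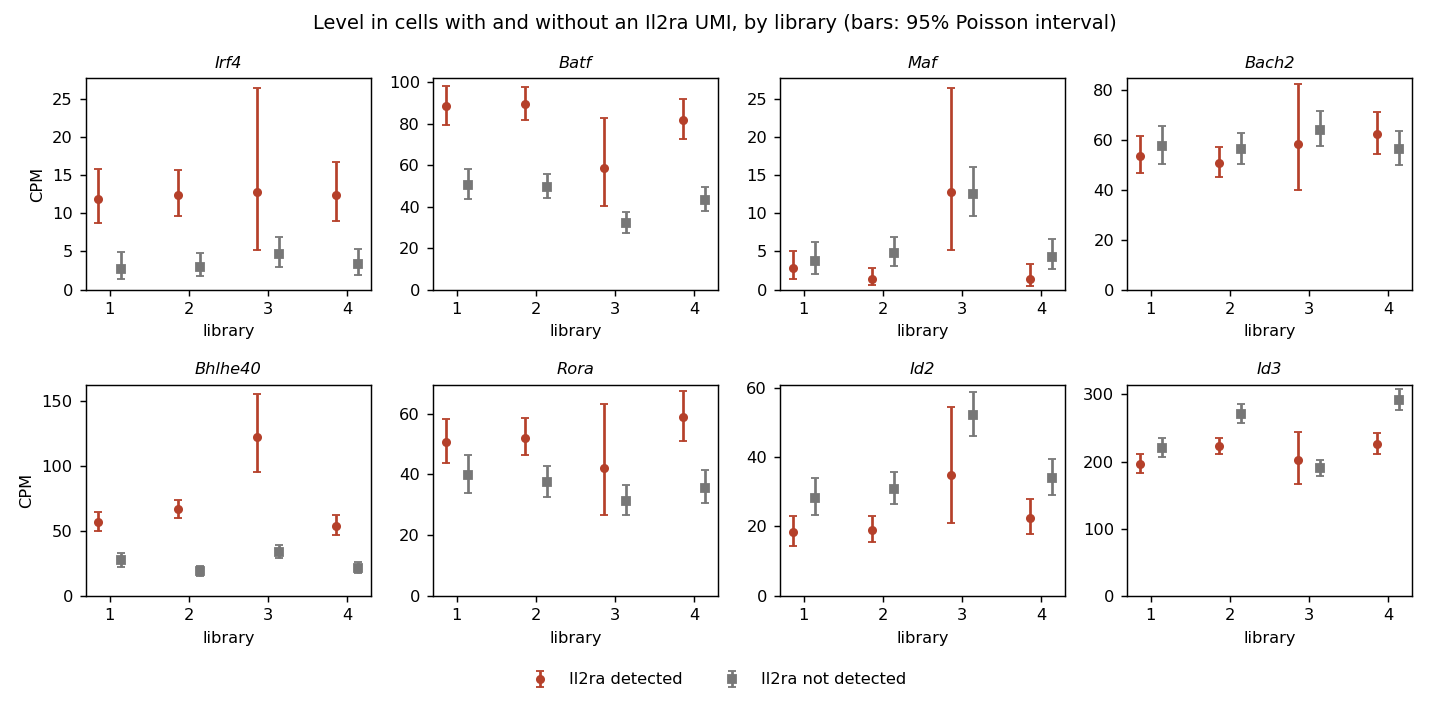
Level of the 8 members with at least 50 UMIs, in CPM, in cells with (left, circles) and without (right, squares) an Il2ra UMI in each of the 4 libraries, with 95% Poisson intervals. Irf4, Bhlhe40 and Batf are higher with Il2ra in every library and Id2 is lower, while library 3 has wide intervals because 139 of its cells had Il2ra.

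The other 4 members were not called. Rora, an orphan nuclear receptor of type 2 innate and some regulatory cells, had 53.0 CPM with Il2ra and 35.8 CPM without, a ratio of 1.42-fold (1.28 to 1.59) and 1.23-fold with depth quartiles. Per library 1 to 4, Rora had 50.6, 52.1, 42.1 and 58.9 CPM with Il2ra and 39.8, 37.5, 31.1 and 35.5 CPM without, higher with Il2ra in each. Maf had 2.82, 1.43, 12.8 and 1.44 CPM with Il2ra in libraries 1 to 4, and 3.75, 4.75, 12.6 and 4.31 CPM without. Its log2 ratio was -0.91 over all libraries, was 0.11 in library 3 alone and became -1.22, past the call, without library 3. Id3, the E protein inhibitor of naive T cells and thymocytes, had 215 CPM with Il2ra and 245 CPM without, a ratio of 0.84 (0.80 to 0.88). In library 3 alone Id3 ran the other way, with 203 CPM with Il2ra and 190.3 CPM without. Bach2 had 55.0 CPM with Il2ra and 58.8 CPM without, a ratio of 0.97 (0.88 to 1.06). In the double-positive gate cells Maf gave 1 UMI, a share of 1.27% (0.032 to 6.85). That share lies beside 1.15% with Il2ra and 2% without, so at this depth the Maf shares are not told from it. Id3 had 144 CPM in the gate cells. The intervals of Bach2 and Id3 exclude a change of 1.5-fold in either direction. Of the members below the UMI minimum, Prdm1 had 10 UMIs with Il2ra and 16 without, and Tbx21, which encodes the type 1 lineage factor T-bet, had 9 UMIs with and 5 without.

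**Figure D2:**
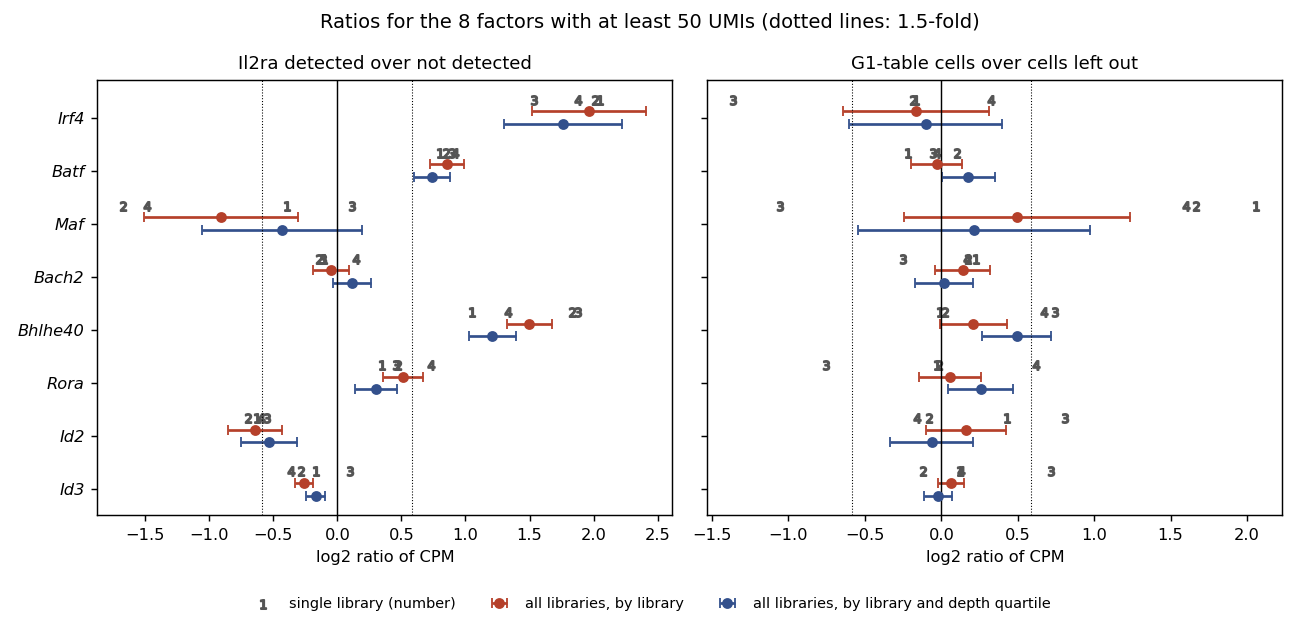
Log2 ratio of CPM for the 8 members with at least 50 UMIs: cells with over cells without an Il2ra UMI (left), and G1-table cells over cells left out (right). Points with bars are ratios over all libraries with 95% counting intervals, red by library and blue by library and depth quartile, and grey numbers are single libraries. In the left panel Irf4, Bhlhe40 and Batf lie right of 1.5-fold in both fits and Id2 crosses back over the line with depth quartiles. In the right panel library 3 stands away from the others for Irf4, Maf and Rora.

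Summed over libraries, the 3 members called higher were also higher at each further Il2ra UMI. For cells with 0, 1, 2 and 3 or more Il2ra UMIs (5836, 1233, 573 and 631 cells), Irf4 had 3.45, 8.84, 13.4 and 16.4 CPM. Bhlhe40 had 24.9, 49.2, 64.2 and 82.0 CPM, and Batf 43.6, 66.9, 84.2 and 115 CPM, over the same 4 classes. Within single libraries, every step was upward in all 4 for Batf only. Irf4 had 14.6 CPM at 2 and 14.1 CPM at 3 or more UMIs in library 4. Bhlhe40 had 74.1 and 72.4 CPM in library 2, and 221 and 35.2 CPM in library 3, at 2 and at 3 or more UMIs. The top class of library 3 held 4 cells, where the limit of 3 counts is 105 CPM. The 35.2 CPM of Bhlhe40 lies below that limit, and the top value of Batf there rested on 4 UMIs. Rora had 35.8, 48.6, 53.1 and 59.6 CPM over all libraries, with a downward step in each single library. Id2 had no such order, with 36.6, 16.6, 23.2 and 23.6 CPM and its lowest value at 1 UMI. Maf had 6.49, 2.89, 2.23 and 1.45 CPM, Id3 245, 229, 205 and 203 CPM, and Bach2 58.8, 57.6, 54.4 and 51.6 CPM. The classes differ in depth, with medians of 2783, 3984, 4485 and 5328 UMIs, and in the libraries they come from, as library 3 gave 4 of the 631 cells in the top class. In the depth-stratified ratio of the top class over cells without Il2ra, the log2 values were 2.19 for Irf4 (1.60 to 2.77), 1.52 for Bhlhe40 (1.28 to 1.76), 1.13 for Batf (0.94 to 1.31) and 0.37 for Rora (0.14 to 0.60).

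**Figure D3:**
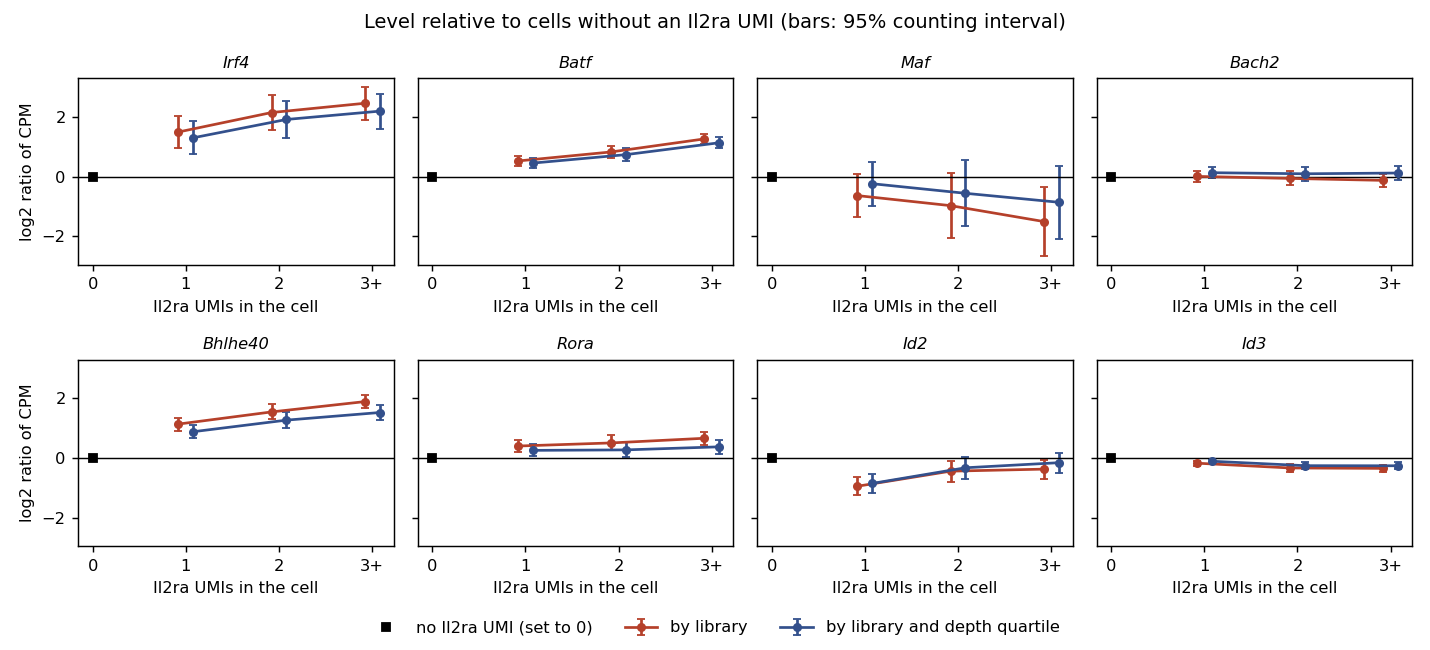
Log2 ratio of CPM over cells without an Il2ra UMI, for cells with 1, 2 and 3 or more Il2ra UMIs (horizontal axis), with 95% counting intervals, red by library and blue by library and depth quartile. Over all libraries Irf4, Batf and Bhlhe40 are higher in each further class in both fits, Bach2 and Id3 stay near 0, and Id2 is lowest at 1 UMI.

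Related genes were counted from named lists, against 4.65% called higher and 3.43% called lower over all genes. In lists of this size a count of 0 or 1 is near those shares. Of 15 tested antigen receptor response genes, 7 were called higher and 1 lower in cells with Il2ra, and the 4 with the largest ratios were the survival gene Bcl2l1 (3.06-fold), the surface protein Cd83 (2.89-fold), Myc (2.43-fold) and the nuclear receptor Nr4a3 (1.87-fold). Of 11 effector Treg genes, 3 were higher and 0 lower: the chemokine receptor Ccr8 (2.11-fold), the decoy receptor Il1r2 (2.10-fold) and the adhesion receptor Cd44 (1.59-fold). Of 11 AP-1 and IRF partners, 1 was higher, Irf8 (1.82-fold). Of 10 naive and quiescence factors, 1 was higher, Myb (1.81-fold), and 4 were lower, among them the chromatin organizer Satb1 (0.56), Tcf7 (0.59) and Klf3 (0.59). Of 4 E proteins and other ID genes 0 were called (1 higher with depth quartiles, Id1), and of 11 factors of other helper lineages 1 was lower, Bcl6 (0.43). Of 12 Treg identity genes, 4 were higher, led by Socs2 (4.58-fold), a target of STAT5. With depth quartiles (2.09% higher and 1.21% lower over all genes), 8 antigen receptor response genes were higher and 0 lower, 1 effector Treg gene was higher, 1 naive factor was higher and 1 lower, and 4 Treg identity genes were higher.

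Other lists moved with the same split, beside the same shares over all genes. Of 17 G2 and M phase genes 10 were higher and of 18 S phase genes 8, and with depth quartiles 0 of either list. The G2 and M phase list summed to 1264 CPM in cells with Il2ra and 642 CPM in cells without, and without proliferating cells Irf4, Batf and Bhlhe40 were still called higher and Id2 lower. Of 9 double-positive thymocyte genes 4 were lower (1 with depth quartiles), and the list of 10 summed to 98.4 CPM with Il2ra and 176 CPM without; leaving out the double-positive gate cells changed none of the 4 calls. Of 4 natural killer and related T cell genes, the chemokine Xcl1 (3.64-fold) and the granule protein Nkg7 (1.94-fold) were higher (0 with depth quartiles), and the list of 8 summed to 294 CPM with Il2ra and 138 CPM without, with Ncr1 at 0. The erythroid genes, nearly all in library 3, summed to 2.07 CPM with Il2ra and 547 CPM without. The part of the last 2 lists in the members' ratios was not tested.

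Between the libraries, 3 of 8 members differed by at least 1.5-fold between their highest and lowest library with intervals that did not overlap, against 24% of all genes tested. All 3 rested on library 3. Batf had 69.2, 69.3, 34.5 and 59.4 CPM in libraries 1 to 4, and was counted in 20.01%, 19.6%, 8.35% and 15.5% of their cells (8.74%, 9.28%, 5.43% and 8.15% thinned). Library 3 was the lowest on each of these scales. Maf, on chromosome 8 from 115682942 to 115707794, had 3.30, 3.10, 12.6 and 3.11 CPM, and thinned shares of 0.45%, 0.604%, 2.47% and 0.871%. Id2 had 23.3, 24.9, 50.4 and 29.1 CPM, and thinned shares of 4.24%, 3.67%, 8.82% and 5.23%. Both were highest in library 3. The other 5 members varied less, with ratios of the highest over the lowest library of 1.41 for Irf4 and Rora, 1.38 for Id3, 1.21 for Bhlhe40 and 1.18 for Bach2. Rora, on chromosome 9 from 68653786 to 69388246, had 45.1, 44.7, 32.2 and 45.3 CPM, with library 3 the lowest. Id3, on chromosome 4 from 136143497 to 136145755, had 209, 247, 192 and 265 CPM. Bach2, on chromosome 4 from 32238804 to 32586108, had 55.8, 53.7, 63.7 and 58.9 CPM, with library 3 the highest. Their libraries lay within the 1.5-fold threshold, although among G1-table cells alone Rora differed too (1.58-fold, library 4 over library 3). Without library 3, 0 of the members differed by this rule, and their largest ratio was 1.27-fold (Id3). The share over all genes without library 3 is not given here, so this 0 is not read as a trait of the members. Prdm1 had 0.253, 0.443, 2.10 and 0.838 CPM, with 12 of its 26 UMIs in library 3. Over all genes, library 3 was the highest library for 47.3% and the lowest for 1123 of the 2438 genes that differed.

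**Figure D4:**
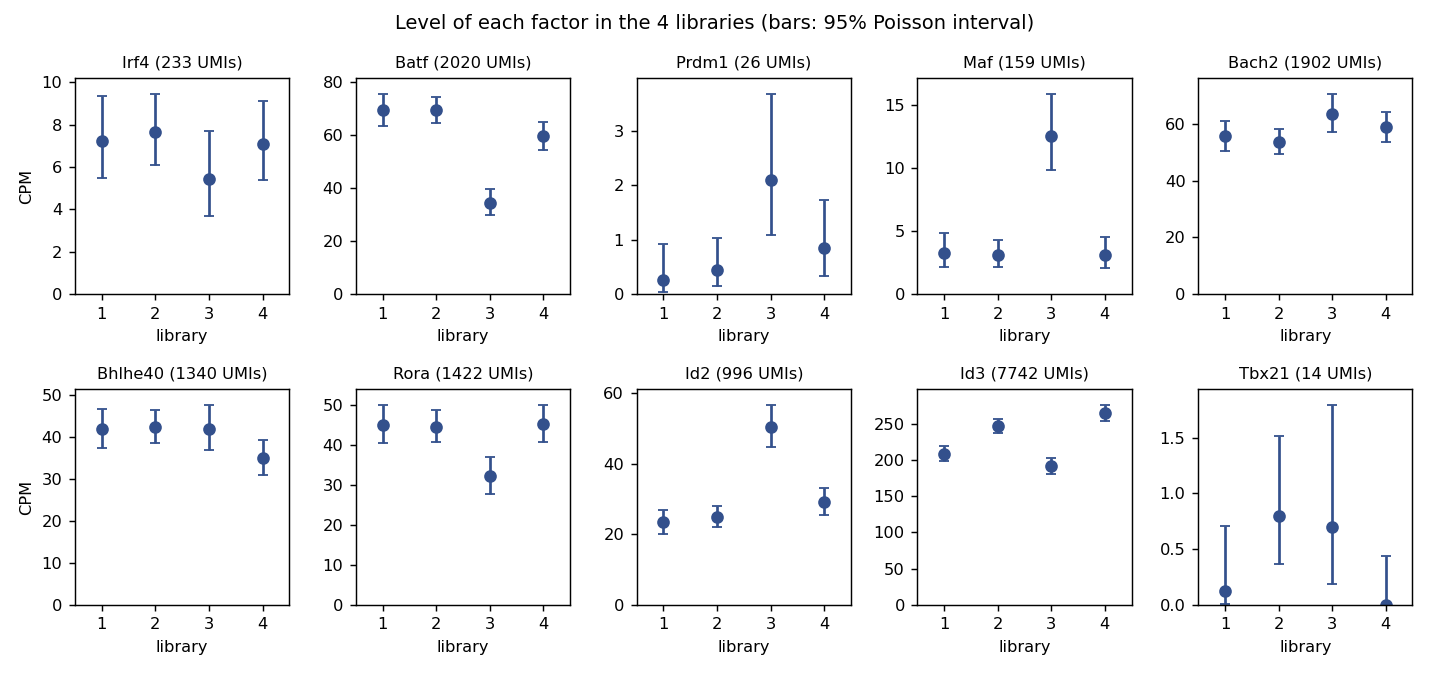
Level in CPM of each member in libraries 1 to 4, with 95% Poisson intervals and its total UMIs in the panel title. Library 3 is low for Batf and Rora and high for Maf and Id2. Prdm1 and Tbx21 rest on 26 and 14 UMIs, and their intervals are wide relative to their levels.

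In a library total, fewer cells with Il2ra and lower levels within cells cannot be told apart, so the libraries were also read among cells with and cells without Il2ra. In cells without Il2ra 5 members differed by the same rule (Id3, Bhlhe40, Maf, Id2 and Batf; 18.2% of all genes), and in cells with Il2ra 1 of 7 did (Bhlhe40; 11.4% of all genes). Bhlhe40 thus had nearly level totals of 41.8, 42.4, 42.0 and 35.0 CPM in libraries 1 to 4, while library 3 was the highest among cells with Il2ra (123 CPM) and among cells without (33.5 CPM). Maf in cells without Il2ra had 3.75, 4.75, 12.6 and 4.31 CPM, so the higher level in library 3 was present there too. Irf4 totals were 7.22, 7.63, 5.42 and 7.07 CPM, while its levels within cells with Il2ra ran from 11.8 to 12.8 CPM. Whether the erythroid RNA, the shallower depth or the fewer proliferating cells of library 3 bear on these values was not tested.

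The authors' second table holds 7231 cells named as G1, and 1042 cells were left out of it. In G1-table cells, 17 of 17 G2 and M phase genes were called lower, and of 18 S phase genes 1 was higher and 14 were lower. Of the cells left out, 410 were proliferating by the 3-UMI rule, 6 were double-positive gate cells, 59 had over 10% mitochondrial UMIs and 567 were none of these. Over all cells 642 were proliferating by that rule, so the G1 table also holds cells that meet it. Of the 8 members 0 were called, against 12.1% of all genes (3.2% higher and 8.86% lower), and the ratios of G1-table cells over cells left out ran from 0.89 (Irf4) to 1.41 (Maf). Batf had 60.0 CPM in G1-table cells and 64.7 CPM in cells left out. Bach2 had 58.3 CPM in G1-table cells and 52.0 CPM in cells left out. Id3 had 234 CPM in G1-table cells and 227 CPM in cells left out. These pairs of levels lie close together. Within the cells left out, the proliferating ones had 69.1 CPM of Batf, 235 CPM of Id3 and 44.4 CPM of Bach2, and those that met none of the 3 criteria had 53.2, 217 and 75.4 CPM of the same genes. The intervals of Batf, Bach2, Bhlhe40, Rora, Id2 and Id3 exclude a ratio of 1.5-fold in either direction, while that of Maf (0.84 to 2.35) does not, and that of Irf4 (0.64 to 1.24) reaches past 1.5-fold lower. With depth quartiles 0 members were called too (10.5% of all genes, 2.54% higher and 8% lower), and Bhlhe40 then had a ratio of 1.41 (1.20 to 1.65). Prdm1 gave 21 UMIs in G1-table cells and 5 in cells left out, and Tbx21 gave 14 in G1-table cells and 0 in cells left out, which allows up to 0.546 CPM there.

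Single libraries differed. Rora had 45.0, 44.7, 30.4 and 47.9 CPM in G1-table cells of libraries 1 to 4, and 45.7, 44.9, 50.3 and 30.8 CPM in cells left out, so it was lower in G1-table cells of library 3 and higher in those of library 4. Maf had 3.95, 3.62, 11.5 and 3.53 CPM in G1-table cells and 0.643, 0.925, 23.2 and 0.79 CPM in cells left out, with 1, 2, 12 and 1 UMIs behind the values in cells left out, below or near the limit of 3 counts outside library 3. For Irf4 in library 3, 5 of the 6 UMIs in cells left out came from 1 cell.

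Of the 29 pairs of members with at least 5 expected shared cells, out of 45, 5 were seen together at least 1.5 times as often as their separate detection gives within library and depth quartile, with an interval off 1, and 0 were seen apart to that extent. The share over pairs of all genes is not given here, so these counts are not read as a trait of the members. Irf4 and Bhlhe40 were both counted in 84 cells against 31.1 expected (2.70-fold, 2.16 to 3.35). Irf4 and Batf shared 96 cells against 45.4 expected (2.11-fold, 1.71 to 2.58), Bhlhe40 and Rora 238 against 149 (1.59-fold), and Batf and Bhlhe40 294 against 191 (1.54-fold). Irf4 with Bhlhe40 was above expectation in every library, with ratios of 2.92, 2.50, 2.89 and 2.79. Maf and Id2 shared 22 cells against 13.5 (1.63-fold, 1.02 to 2.47), of which 9 against 2.29 were in library 2, 9 against 7.27 in library 3 and 1 against 2.11 in library 4, and the pair was not counted without library 1 or without library 2. Among pairs with at least 5 expected cells, Bach2 had ratios of 0.96 to 1.16, the highest with Bhlhe40 (1.02 to 1.32), and shared 326 cells with Batf against 307. Id3 had ratios of 0.92 to 1.13, and 0.34 with Tbx21 on 2 cells. Both pairs with Irf4 were also called among cells with and among cells without Il2ra: Irf4 and Bhlhe40 shared 70 cells with Il2ra against 30.7 expected and 14 cells without against 5.41, and Irf4 and Batf shared 81 cells with Il2ra against 42.2 and 15 cells without against 8.06.

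**Figure D5:**
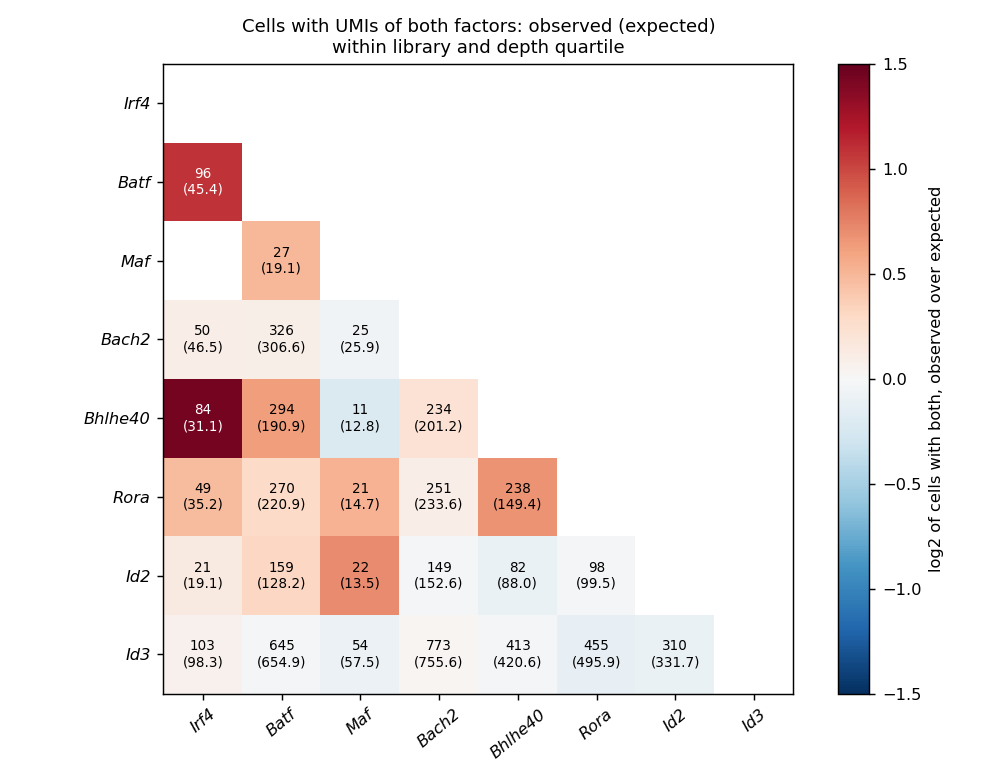
Cells with UMIs of both members of a pair, observed with the expected number in parentheses, within library and depth quartile. Colour is the log2 ratio, red for more and blue for fewer than expected, and blank squares below the diagonal had under 5 expected cells. The deepest red is that of Irf4 with Bhlhe40 (84 cells) and with Batf (96 cells), and squares in the Bach2 and Id3 rows are pale.

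For each member with at least 200 UMIs, all genes were ranked by their ratio between cells with and without a UMI of it, within library and depth quartile. Over 10176 genes, 5.21% were called higher with Irf4, 5.68% with Bhlhe40, 2.81% with Rora, 1.78% with Id2, 1.7% with Batf, 1.31% with Id3 and 0.393% with Bach2. The leading genes with Irf4 were Nr4a3 (5.19-fold), the oxysterol receptor Gpr183 (4.51-fold) and Gadd45b (3.91-fold), and with Bhlhe40 the chemokine Xcl1 (8.86-fold), Gadd45b (4.61-fold) and Gpr183 (4.26-fold). With Batf they were Cd83 (2.91-fold), Bcl2l1 (2.81-fold) and Icam1 (2.61-fold). With Rora they were Tmem97 (2.75-fold), Trmt61a (2.46-fold) and Pus7 (2.23-fold), and with Bach2 no called gene with at least 300 UMIs exceeded 1.72-fold (Grwd1). With Id2 the calcium-binding S100a6 led (3.36-fold) before the mitotic genes Plk1 (2.08-fold) and Hmmr (1.94-fold), and with Id3 Pbk (1.97-fold), Cdca2 (1.92-fold) and Tk1 (1.89-fold), which are expressed in dividing cells. Depth quartiles are coarse and dividing cells had a median of 9247 UMIs, so the part of depth in the Id2 and Id3 rankings was not tested.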

How the data were processed

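Single-cell 3' profiles of 4 sorted thymic Treg samples were analysed from 2 tables. The first holds whole-number UMI counts as deposited, for 27998 genes and 8273 cells. The submitters' processing notes name the mm10 build, Cell Ranger 2.0.2, CASAVA 2.20 and R 3.4.1. The second is a log2 table as the authors deposited it, with 9571 genes, 8 of them members, and 7231 cells. Recomputed from the counts, its entries equal log2(count / factor + 1), with a factor for each cell (0.168 to 5.68, median 0.768). No source used here says how cells and factors were chosen. Symbols came from the GRCm38 annotation for 27645 identifiers, and 353 had none. The 8273 columns carry no sample, so they were left unassigned. Overlapping or antisense genes in the table had 0 UMIs, or 2 for Bach2os.

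CPM is the summed UMIs of a gene per 1000000 UMIs of the same cells, with exact Poisson intervals, and shares have exact Clopper-Pearson intervals (95%), all for counting error only. Ratios are Mantel-Haenszel ratios over libraries, with 0.5 UMIs added for the log and at least 20 cells on each side for a library's direction. Genes needed 50 UMIs. A count of 0 was given the limit of 3 counts. Thinning drew 1811 UMIs per cell, the 10th percentile, which kept 7447 cells (seed 1). Doublets were not called. The ratio was tested on simulated counts with known changes. Genes were named by rule: all members, up to 4 called genes of a list by ratio, and the 3 leading genes with at least 300 UMIs for each member with at least 200. Alternatives covered scaling, weighting, depth strata, thinning, UMI minimum, fold threshold, cell filters, the authors' log2 values and leaving out each library. The members and lists were chosen with earlier results of these data known. The work used scipy 1.17.1, numpy 2.4.6, pandas 2.3.3, matplotlib 3.10.9 and Python 3.11.15, with edgeR 4.0.16 for trimmed mean factors alone.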

Additional observations from a re-analysis of the deposited data

Results flagged for a closer look

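The ratio of Rora between G1-table cells and cells left out pointed in opposite directions in 2 libraries, each with an interval off 0: its log2 value was -0.75 in library 3 and 0.62 in library 4. The log2 values in libraries 1 and 2 were -0.03 and -0.01. The difference between the libraries was not tested. Rora gave 26 UMIs in the 253 left-out cells of library 3 and 39 UMIs in the 232 left-out cells of library 4. These cells differed in kind, with medians of 1470 and 3179 UMIs per cell and 9 and 110 proliferating cells, and the part of this in the difference was not tested.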

How the results depend on the processing

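No paired analysis was possible because the suffixes are tied to no sample and each genotype has 1. The 3 members called higher with Il2ra stayed between 2 and 4 under the 18 alternatives: 4 after thinning, with Rora added, 4 without a UMI minimum, with Tbx21 added, and 2 at 2-fold, without Batf. The Tbx21 call is not read as a result, since library 4 held 0 Tbx21 UMIs in both groups. Its direction there came only from the 0.5 UMIs added for the log. The count called lower, 1, was 0 with depth quartiles, 0 after thinning and 0 at 2-fold, 2 in G1-table cells alone (Maf and Id2), and 1 to 2 when single libraries were left out, where Maf joined Id2 without library 3. With 2 or more Il2ra UMIs against none it was 1, but Maf in place of Id2. Between G1-table cells and cells left out, the count called lower was 1 after thinning (Irf4, log2 ratio -0.98), and the count called higher was 0 to 1 when single libraries were left out (Maf, log2 ratio 2.04 without library 3). Members that differed between libraries were 1 in cells with Il2ra alone (11.4% of all genes) and 5 in cells without (18.2% of all genes). They were 4 in G1-table cells alone (Rora added, 20.5% of all genes), and 0 to 3 when single libraries were left out. Pairs seen together, 5, were 2 in cells with Il2ra alone (Irf4 with Bhlhe40 and Irf4 with Batf). There Batf with Bhlhe40 (1.39-fold) and Bhlhe40 with Rora (1.47-fold) fell short of 1.5-fold. In cells without Il2ra both of these pairs were called (1.60-fold and 1.71-fold). Pairs seen together were 7 with strata by library alone (Irf4 with Rora 2.05-fold and Batf with Rora 1.63-fold added), and 4 to 5 when single libraries were left out. Genes called higher with a member, 1921 in sum, were 3419 with strata by library alone. For these changes the cause was not tested. On the authors' log2 values, differences are means of logged values and gave no call: with over without Il2ra, averaged over libraries, they were 0.14 for Bhlhe40, 0.12 for Batf, 0.04 for Irf4 and -0.03 for Id2. Chosen after seeing the data were the alternatives in cells with or without Il2ra, G1-table cells with depth quartiles, cells left out without proliferating, double-positive gate or high mitochondrial cells, libraries left out of the library comparison, and pairs without proliferating or double-positive gate cells. Depth limits Prdm1, Tbx21, Maf and Irf4 most, and in library 3 all members in cells with Il2ra.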
